A study of Arabidopsis thaliana with 24 samples.

Results

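Nitrate given together with hydrogen peroxide (H2O2) was compared with H2O2 alone in wild-type Arabidopsis thaliana seedlings, 3 libraries against 3, which are 6 of the 24 libraries of the series. Both groups were Col-0 seedlings grown for 7 days on 7 mM KNO3 and then kept for 2 days without nitrogen. One group then received 10 mM KNO3 with 0.5 mM H2O2 and the other 0.5 mM H2O2, each for 3 h, so every library of the comparison carried the same nitrogen starvation and the same H2O2 dose. The H2O2 group is also called KCl with H2O2 in a table name, and its labels give H2O2 only. To see how H2O2 bears on the nitrate response, the same dose of KNO3 over mock treatment without H2O2 in wild type, again 3 libraries against 3, was set beside it. Transcripts were counted by mRNA sequencing of whole seedlings on a BGISEQ-500, so fewer cells of a type and less RNA per cell cannot be told apart. The labels number the libraries as biological replicates and do not say whether they came from separate cultures, so the p-values measure the spread between these libraries.

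Nitrate is both a nutrient and a signal in plants. It is taken up by NRT1/NPF and NRT2 transporters, reduced to nitrite by nitrate reductase in the cytosol and to ammonium by nitrite reductase in plastids, and the ammonium is joined to glutamate by glutamine synthetase and glutamate synthase. The reduction draws on NADPH from the oxidative pentose phosphate pathway, and within hours of nitrate supply to starved seedlings transcripts for all of these steps, for ribosome assembly and for cytokinin synthesis are known to rise, largely under NLP transcription factors. Hydrogen peroxide is a reactive oxygen species that acts as a stress signal and induces detoxification, heat shock and defence genes.

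A level is the mean normalized count per library of a group, derived from the base mean and log2 fold change of the authors' deposited table. A log2 fold change ± standard error (SE, n = 3 against 3) is the authors' own value by DESeq2, and a gene was called when it changed by 2-fold or more at an adjusted p under 0.05. Genes written as having risen or fallen passed that call. The response difference is the log2 fold change of nitrate with H2O2 minus that without H2O2. Base means summed to 2.02e+07 normalized counts, the depth of single libraries is unknown, and the median SE of the log2 fold change was 0.0999 for the 16382 genes with a base mean over 100 and 0.747 for genes under 20.

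Adding nitrate to H2O2 raised 1458 of 22302 genes, 6.54%, and lowered 924, 4.14%, in the authors' deposited table. The median log2 fold change over all genes was 0.0045. The genes that rose included those for nitrite reductase and the LBD repressors, 17 of 18 ribosome biogenesis genes, 8 of 17 reductant genes and 6 of 15 cytokinin synthesis and export genes. Those that fell included 10 of 19 anthocyanin genes, 7 of 26 starvation genes and 5 of 12 indolic defence genes. A further 9497 genes had an adjusted p under 0.05 with less than a 2-fold change in that table.

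**Figure D1:**
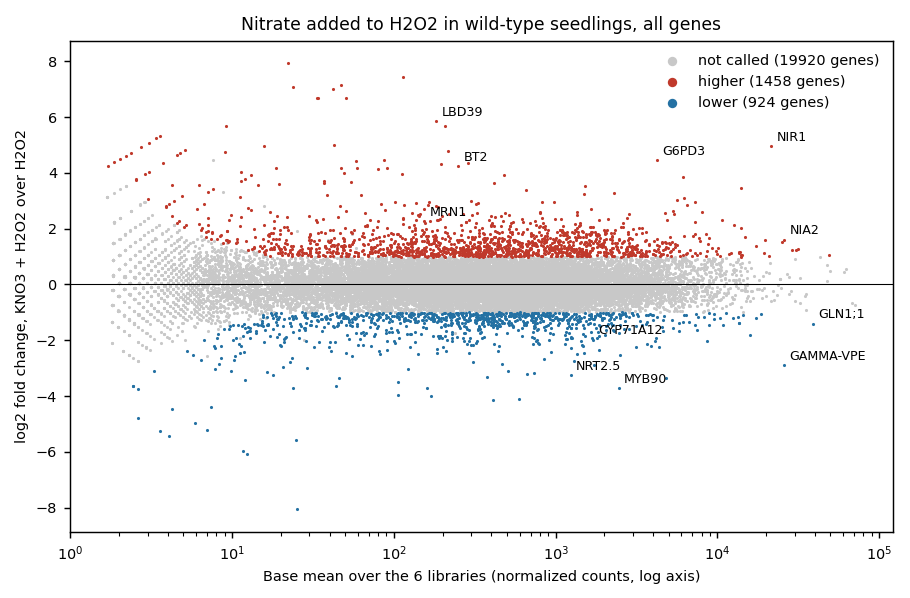
Log2 fold change of KNO3 + H2O2 over H2O2 (y axis) against the base mean over the 6 libraries in normalized counts (log x axis), with each point a gene. The 1458 genes called higher are red, the 924 called lower blue, and NIR1 stands at a log2 fold change of 4.95 among the most highly counted genes.

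Called genes with the highest normalized counts, which are not corrected for transcript length, had varied roles. Of the called genes, the 8 highest counts that rose belonged to NIR1, NIA2, the elongation factor gene AT5G60390, the glycolytic enzymes GAPC2 and LOS2 (enolase), the plasma membrane proton pump HA2, the transketolase AT3G60750 and the ribosomal protein gene AT1G43170. The derived level of HA2 was 17284 with H2O2 and 40803 with KNO3 and H2O2. The 8 highest counts that fell included gamma vacuolar processing enzyme (GAMMA-VPE) and the cysteine proteases RD21A and ALP, which degrade proteins in the vacuole. GAMMA-VPE fell from a derived level of 45627 to 6174, a log2 fold change of -2.89 ± 0.08 with an adjusted p of 1.83e-268 by the authors' deposited table. RD21A fell from 24768 to 6994 and ALP from 19521 to 7538 on the same scale. The others were the cytosolic glutamine synthetase GLN1;1, polyubiquitin UBQ3, chalcone synthase (CHS), the ethylene-forming enzyme EFE and the calcium-binding protein gene AT2G41090.

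Nitrate uptake genes moved in both directions. Of 19 listed transporters and channels with a value, 8 rose and 1 fell, and the median log2 fold change was 0.66, by the authors' deposited table. NRT2.1, the main high-affinity nitrate transporter of roots, rose from a derived level of 1595 to 9121. The authors' deposited table gives NRT2.1 a log2 fold change of 2.52 ± 0.08 and an adjusted p of 3.38e-227. NRT3.1, the partner protein that NRT2 transporters need, rose from 2883 to 6142, and CLCA, which loads nitrate into the vacuole, from 343.9 to 829.9. NRT2.5, a transporter of long nitrogen starvation, fell from 2248 to 234.1. NPF6.3, the dual-affinity transporter and nitrate sensor, stood at 5086 and 8009, a change of 0.66 ± 0.06 that missed the fold minimum in the authors' deposited table. NRT2.1 and NRT2.2 share 88.3% of their coding bases in RefSeq, so reads may be split between them, and NRT2.2 was low here, at levels of 5.19 and 111.9.

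Transcripts for both reduction steps from nitrate to ammonium rose. NIR1, the nitrite reductase, went from a derived level of 1342 to 41561, a log2 fold change of 4.95 ± 0.06 in the authors' deposited table, where its adjusted p is listed as 0. Both nitrate reductases rose, NIA1 from 3685 to 11730 and NIA2 from 12848 to 39051, log2 fold changes of 1.67 ± 0.07 and 1.60 ± 0.06 by the authors' deposited table. UPM1, which makes the siroheme cofactor of nitrite reductase, rose from 1303 to 11199. Of the 11 genes on this list, which includes molybdenum cofactor synthesis, 5 rose, none fell and the median was 0.82 by the authors' deposited table. Reductant supply moved with it, since 8 of 17 genes rose and none fell in that table. The plastid glucose-6-phosphate dehydrogenases G6PD3 and G6PD2 rose from 368.5 to 8049 and from 1212 to 3744, and the change of G6PD3 was 4.45 ± 0.08 on the log2 scale of the authors' deposited table. The 6-phosphogluconate dehydrogenase gene AT5G41670 rose from 2332 to 25822. Root ferredoxin-NADP reductases, which pass electrons to nitrite reductase through ferredoxin, rose from 1218 to 9995 for RFNR2 and from 1643 to 12835 for RFNR1.

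Assimilation of the ammonium was split by gene. ASN2, an asparagine synthetase, rose from a derived level of 798.2 to 11508 and the NADH glutamate synthase GLT1 from 3567 to 17923. GLN1;1 and GLN1;4, cytosolic glutamine synthetases, fell from 56685 to 21368 and from 5163 to 1098. GLN2, the plastid form, stood at 6682 and 11495 and was not called. Of the 20 genes 2 rose and 2 fell, and the median was -0.40 in the authors' deposited table.

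**Figure D2:**
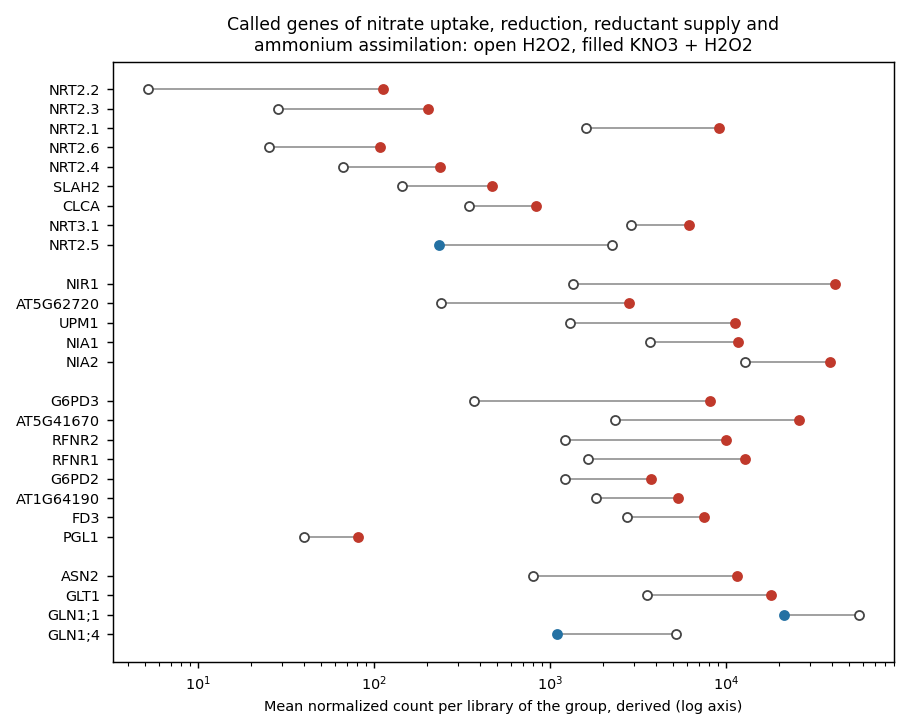
Derived mean normalized count per library (log x axis) for the called genes of nitrate uptake, nitrate reduction, reductant supply and ammonium assimilation. Open points are H2O2, filled points KNO3 + H2O2, red for genes that rose and blue for genes that fell, and NIR1 spans 1342 to 41561.

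Many regulators of the nitrate response changed. Of 37 with a value, 14 rose and 4 fell, and the median was 0.59, by the authors' deposited table. LBD37, LBD38 and LBD39, repressors of nitrogen uptake and anthocyanin genes, rose from derived levels of 282.7 to 2712, of 115.1 to 1200 and of 6.17 to 358.0. For LBD37 that is a log2 fold change of 3.26 ± 0.10 with an adjusted p of 9.46e-241 by the authors' deposited table, and for LBD39, with its low H2O2 level, 5.86 ± 0.36. BT2, a BTB-TAZ scaffold protein that represses nitrate uptake genes, rose from 25.03 to 473.8, and its relative BT1 from 69.88 to 173.3. BT3 of that family fell, with a log2 fold change of -1.14 ± 0.27 in the authors' deposited table, and BT4 and BT5 were not called. Genes that RefSeq annotates as myb-like transcription factors rose too, for example AT1G68670 from 90.67 to 515.1 and AT1G25550 from 369.5 to 1437. AT3G25790 of that family had a level of 0.35 with H2O2, under 1 normalized count per library, and of 47.17 with nitrate, so no fold is given. NLP3 rose from 150.1 to 658.2, whereas NLP5, NLP8 and NLP9 fell, NLP9 from 354.4 to 68.22.

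Among HBI1-related bHLH genes, 3 of 14 rose and 1 fell in the authors' deposited table. HBI1 itself is not analysed here. BEE2 and BEE1, brassinosteroid-induced bHLH factors, rose from derived levels of 95.83 to 300.9 and of 78.64 to 180.2, and BPE fell from 315.9 to 83.80.

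Some cytokinin genes rose at synthesis, export and response. IPT3, the nitrate-responsive isopentenyltransferase, rose from a derived level of 77.69 to 584.0 and CYP735A2, which makes trans-zeatin, from 23.08 to 181.2. ABCG14, which exports cytokinin from the root, rose from 641.1 to 2026. Of 15 synthesis and export genes 6 rose and 1 fell, and of 16 response and breakdown genes 7 rose and none fell in the authors' deposited table. The response regulator ARR7 rose from 97.54 to 425.2.

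Glutaredoxins of the CC class, small redox proteins found in land plants and linked to nitrate signalling, were listed by locus ID and gave 8 genes that rose and 4 that fell of 17 in the authors' deposited table. The cluster AT4G15660 to AT4G15700 on chromosome 4, annotated in RefSeq as thioredoxin superfamily proteins, was at or near 0 with H2O2 alone. Its derived levels with H2O2 were 2.6 for AT4G15660, 0.65 for AT4G15670, 0.65 for AT4G15680, 0.18 for AT4G15690 and 4.88 for AT4G15700. With nitrate added they were 83.10, 66.85, 92.96, 43.92 and 89.23 in the same order, and all 5 were called in the authors' deposited table. Levels under 1 normalized count per library give no fold. The first 60 coding bases of the 5 genes follow because reads may not tell the copies apart, with capitals at the 11 positions where the 5 differ (RefSeq, TAIR10.1). Over the 309 coding bases the pairs shared between 88.3% and 93.2%, so the split of reads between these genes is uncertain.
AT4G15660: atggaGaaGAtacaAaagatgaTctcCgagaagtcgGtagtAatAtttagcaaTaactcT
AT4G15670: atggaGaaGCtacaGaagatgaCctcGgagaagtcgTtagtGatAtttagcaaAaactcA
AT4G15680: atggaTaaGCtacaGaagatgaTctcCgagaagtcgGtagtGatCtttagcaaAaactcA
AT4G15690: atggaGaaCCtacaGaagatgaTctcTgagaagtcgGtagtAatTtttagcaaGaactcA
AT4G15700: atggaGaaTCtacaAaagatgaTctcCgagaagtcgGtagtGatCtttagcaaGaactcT

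The other 3 listed glutaredoxins that rose, AT5G18600, AT2G30540 and AT3G62930, and the 4 that fell lie outside that cluster. AT5G18600 rose from a derived level of 7.48 to 165.9 and AT2G30540 from 28.62 to 68.22. AT3G62960 fell from a derived level of 685.0 to 68.53 and AT2G47880 from 2425 to 526.0. The phytoglobin HB1, which scavenges nitric oxide, rose from 189.1 to 1455.

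Ribosome assembly genes rose together. Of 18 ribosome biogenesis genes 17 rose and none fell in the authors' deposited table, and the median log2 fold change was 1.67 against 0.0045 over all genes. FIB2, a fibrillarin that methylates ribosomal RNA, rose from a derived level of 1383 to 8150 and nucleolin NUC1 from 9782 to 29364. By the authors' deposited table FIB2 changed by 2.56 ± 0.08 and NUC1 by 1.59 ± 0.06 on the log2 scale, with adjusted p-values of 1.65e-243 and 1.77e-143. NOP56, a core protein of the same particles, rose from 3231 to 11278, and CBF5, the pseudouridine synthase, from 2865 to 9618. Of 308 genes annotated as ribosomal proteins 76 rose and none fell, and the median was 0.76 by the authors' deposited table.

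The upstream windows of 4 ribosome biogenesis genes, the most highly counted of those that hold the motif TGGGCC, are shown because these genes rose together. Each is the 250 bases before the RefSeq gene start (TAIR10.1), 5′ to 3′ on the gene's strand, with TGGGCC on either strand in capitals. FIB1 lies on the plus strand with its window at chr5:21293897-21294146, and NOP56 on the minus strand at chr1:20986953-20987202. AT5G27120, a NOP56-like gene, has its window at chr5:9540611-9540860 on the plus strand, and AT2G40360, a WD40 repeat protein gene, at chr2:16856772-16857021 on the minus strand.
FIB1: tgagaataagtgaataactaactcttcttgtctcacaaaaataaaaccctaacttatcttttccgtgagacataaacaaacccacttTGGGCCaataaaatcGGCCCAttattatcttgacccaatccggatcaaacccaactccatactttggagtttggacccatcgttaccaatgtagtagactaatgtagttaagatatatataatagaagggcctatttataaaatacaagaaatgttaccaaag
NOP56: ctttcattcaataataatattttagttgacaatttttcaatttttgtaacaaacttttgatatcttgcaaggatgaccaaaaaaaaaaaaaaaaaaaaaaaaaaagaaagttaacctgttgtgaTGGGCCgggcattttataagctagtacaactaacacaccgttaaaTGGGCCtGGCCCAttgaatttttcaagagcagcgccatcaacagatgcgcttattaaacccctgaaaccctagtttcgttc
AT5G27120: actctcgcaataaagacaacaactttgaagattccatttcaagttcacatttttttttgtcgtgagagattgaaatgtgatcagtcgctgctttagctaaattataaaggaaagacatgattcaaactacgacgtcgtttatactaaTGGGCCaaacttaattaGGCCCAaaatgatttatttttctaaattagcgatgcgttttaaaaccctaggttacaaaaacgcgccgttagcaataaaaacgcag
AT2G40360: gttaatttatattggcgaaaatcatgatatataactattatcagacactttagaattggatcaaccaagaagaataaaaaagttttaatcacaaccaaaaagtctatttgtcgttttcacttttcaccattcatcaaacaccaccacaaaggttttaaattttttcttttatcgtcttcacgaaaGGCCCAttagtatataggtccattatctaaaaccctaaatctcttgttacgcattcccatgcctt

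TGGGCC, searched on both strands, stood in 12 of the 18 ribosome biogenesis windows (66.7%), in 48.7% of the 308 ribosomal protein windows, in 15 of 31 heat shock windows (48.4%), a list of which 2 genes rose, and in 15.6% of the 21916 windows of all tested protein-coding genes. It was in 23.1% of the windows of genes called higher and in 7.76% of those called lower. AAACCCTA, matches of which can overlap TGGGCC by a single end letter, stood in 22.2% of the ribosome biogenesis windows, 8.41% of those called higher, 2.08% of those called lower and 3.60% of all. CACGTG stood in 6 of 12 clock gene windows (50%), 7 of 19 anthocyanin (36.8%), 5 of 19 iron (26.3%) and 7.31% of all, 5.19% of those called higher and 10.4% of those called lower. TGACG stood in 19.2% of all windows, 18.4% of those called higher and 25.8% of those called lower. A match describes the letters of a window and is not a binding site.

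Sulphur and iron genes rose in part. Of 23 sulphur genes 8 rose and 2 fell in the authors' deposited table. The sulphate transporter SULTR1;2 rose from a derived level of 879.7 to 2695, APR2, which reduces activated sulphate, from 2312 to 6126 and sulphite reductase (SIR) from 9098 to 18988. BGLU28, a sulphur starvation marker, rose from 355.1 to 1793. Of 19 iron genes 7 rose and none fell in that table, among them the nicotianamine synthases NAS1, from 58.83 to 897.5, and NAS4, from 190.5 to 875.4. NAS1 changed by 3.93 ± 0.14 on the log2 scale of the authors' deposited table.

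Part of the anthocyanin and starvation genes fell. Of 19 flavonoid and anthocyanin genes 10 fell and none rose, and the median was -1.42 by the authors' deposited table. The regulators MYB90 and MYB75 fell from derived levels of 4567 to 344.1 and of 1178 to 268.8, log2 fold changes of -3.73 ± 0.09 and -2.13 ± 0.10 by the authors' deposited table. The enzymes DFR and LDOX fell from 6999 to 2219 and from 3781 to 1128. Of 26 nitrogen and carbon starvation genes 7 fell and none rose in that table, including 4 ATG8 genes of autophagy. BCAT2 of branched-chain amino acid breakdown fell from 1573 to 291.1. MGD3, a galactolipid synthase of phosphate starvation, fell from 735.0 to 141.8.

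**Figure D3:**
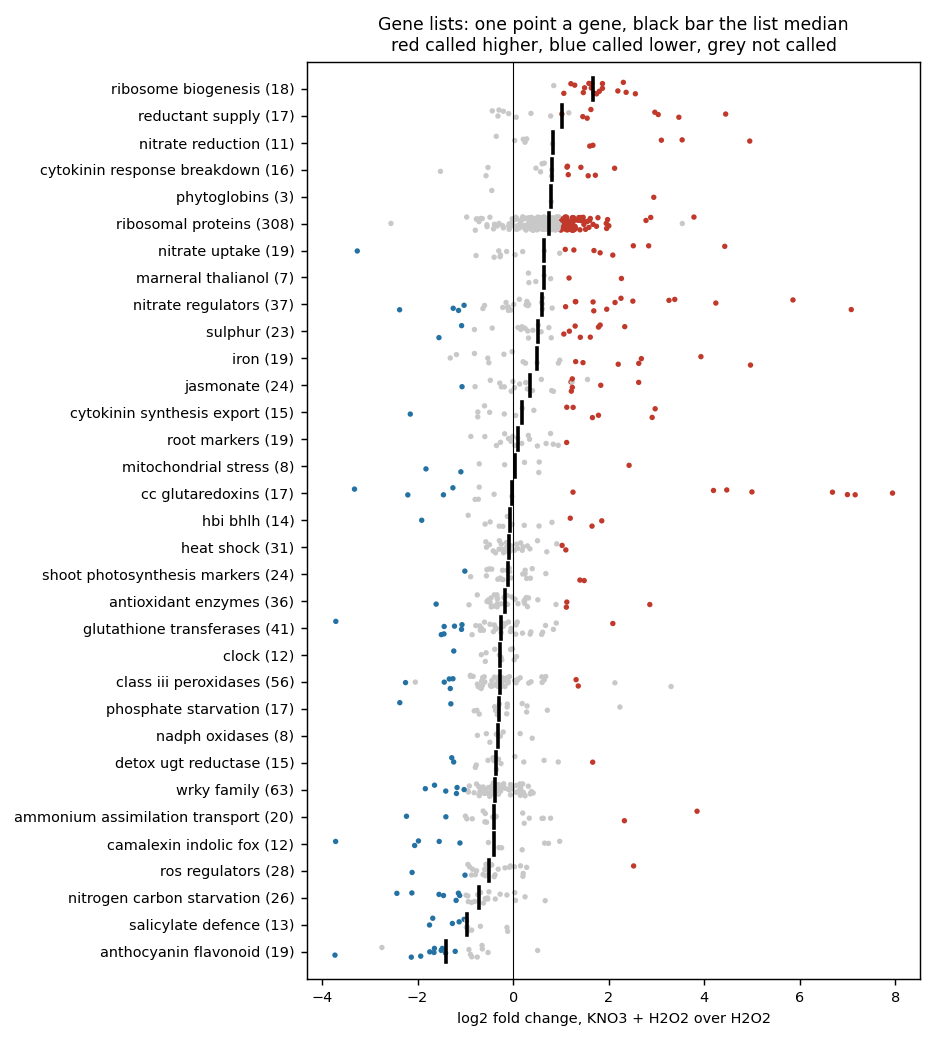
Log2 fold change of KNO3 + H2O2 over H2O2 (x axis) for the members of 33 gene lists (y axis, number with a value in brackets), with each point a gene and black bars the list medians. Red points were called higher and blue lower. Ribosome biogenesis has the highest median, 1.67, and the anthocyanin list the lowest, -1.42.

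Called were 2 of 31 heat shock genes and 3 of 28 reactive oxygen regulators, against 10.7% of all genes in either direction. The H2O2 over mock table lists called genes alone and shares its H2O2 libraries with this comparison, so its values are set beside these without a test. It lists 1112 of the 22302 genes as higher after H2O2 (4.99%) and 689 as lower (3.09%). Of 31 heat shock genes, 28 are listed as higher after H2O2, and with nitrate added 2 rose, none fell and the median was -0.09 in the authors' deposited table. HSP101, the disaggregase, had derived levels of 6474 and 5876 without and with nitrate, and its H2O2 over mock log2 fold change was 4.99 in the authors' deposited table. HSP17.6A, a small heat shock protein, had 4583 and 3753 beside an H2O2 change of 9.95 in the authors' deposited table. Of 28 reactive oxygen regulators, 21 are listed as higher after H2O2, and with nitrate added 1 rose, 2 fell and the median was -0.50 in that table. The factor RRTF1 rose from 65.06 to 373.7 and JUB1 fell from 524.5 to 121.1. ZAT12, a zinc finger marker of oxidative stress, had 1579 and 1270 and was not called.

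The share of antioxidant genes called was close to that over all genes. Of 36 antioxidant genes 3 rose and 1 fell in the authors' deposited table, and the largest was MDAR6, a monodehydroascorbate reductase, from a derived level of 1579 to 11472. None of the 8 NADPH oxidase genes was called, and RBOHD, the main oxidase of stress signalling, had 4677 and 3665. Of 41 glutathione transferases 1 rose and 7 fell in that table. GSTF14 rose from 176.2 to 748.7, and GSTU10 fell from 2263 to 966.0. Of 63 WRKY genes none rose and 6 fell there, among them WRKY70 from 3467 to 1523. Of 56 genes that RefSeq annotates as peroxidase superfamily proteins 2 rose and 5 fell in the authors' deposited table, and AT3G03670 fell from 334.9 to 70.23. Of 8 mitochondrial stress genes 1 rose and 2 fell, of 15 detoxification genes 1 rose and 2 fell, of 17 phosphate starvation genes 2 fell and of 12 clock genes 1 fell in that table. Over all genes 6.54% rose and 4.14% fell, and whether the lists of this paragraph depart from those shares was not tested.

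Part of the salicylate and indolic defence genes fell. Of 13 salicylate genes 5 fell and none rose, and all 13 log2 fold changes were below 0 and had their median at -0.97 by the authors' deposited table. PR1, a marker of salicylate signalling, fell from a derived level of 525.2 to 156.0, and ALD1, which makes the pipecolic acid precursor, from 322.4 to 100.4. PR1 changed by -1.75 ± 0.14 with an adjusted p of 1.93e-33 by the authors' deposited table. The regulator CBP60G fell from 1926 to 797.2. Of 12 camalexin and indolic genes 5 fell and none rose in that table. CYP71A12, of indole-3-carbonyl nitrile synthesis, fell from 2711 to 686.3, and the berberine bridge-like oxidase gene AT1G26390 from 298.8 to 22.73. Jasmonate genes went the other way in part, since 6 of 24 rose and 1 fell in the authors' deposited table. LOX2, a lipoxygenase of jasmonate synthesis, rose from 1481 to 9157, 2.63 ± 0.09 on the log2 scale of the authors' deposited table, and the repressor gene JAZ10 from 79.04 to 183.9.

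The 10 largest rises at a base mean of at least 20 came from genes with low levels with H2O2 alone. Besides the chromosome 4 glutaredoxins, the CLE peptide gene CLE2 had derived levels of 0.65 and 66.53, MBD3, a methyl-CpG-binding domain gene, of 0.97 and 100.1, and AT3G62930, of the same glutaredoxin list, of 0.65 and 83.11. AT1G68238, an uncharacterized protein gene, rose from 1.30 to 227.7 and AT2G21210, a SAUR-like gene, from 7.80 to 405.8. At the lower end, AT3G55790, an uncharacterized protein gene, had 49.86 with H2O2 and 0.19 with nitrate added. Large falls also came from genes that were not low in either group, such as MYB90, from 4567 to 344.1. The hypothetical protein gene AT5G39520 and the histone deacetylase-like protein gene AT2G25625 fell from 1129 to 65.48 and from 778.2 to 43.77, and the PLAC8 family genes AT5G35525 and AT1G58320 from 317.0 to 20.02 and from 198.2 to 12.55. AT2G29220, a lectin kinase gene, had 48.46 and 1.02, GSTU15 had 44.44 and 3.39, and AT1G53610 had 80.93 and 6.45. Of the 2382 called genes, 49 had a group under 1 normalized count per library.

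The nitrate response with H2O2 was then set against that without it. Without H2O2, KNO3 raised 9.44% and lowered 5.51% of 22954 genes in the authors' deposited table. Of 1455 genes that rose with H2O2 and had a value in both tables, 1067 also rose without it, which is 73.3% of the former and 50.1% of the 2130 that rose without it. Of 922 that fell with H2O2, 491 also fell without it, 53.3% of the former and 38.9% of the 1261 of the latter. Opposite calls were few, with 21 genes that rose with H2O2 and fell without it and 41 that fell with H2O2 and rose without it. The log2 fold changes correlated across the 22204 genes of both tables at r = 0.643. Across the 16010 genes with a base mean of at least 100 in both, r was 0.789. Both values are descriptions, since genes are not independent and share libraries within each table.

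The response difference was above 0 for 2534 genes (11.4%) and below 0 for 2975 (13.4%) of 22204 at an adjusted p under 0.05. Its median was 0.015. The test statistic had a robust SD of 1.97, and with the statistic divided by that SD 274 genes were above 0 (1.23%) and 549 below 0 (2.47%). Where a pair of counts is given for a list, the second is from the scaled test. Whether any list departs from the shares over all genes was not tested. The 2 responses share no library. The H2O2 over mock change shares the H2O2 and mock libraries with the response difference and enters it with reversed sign.

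**Figure D4:**
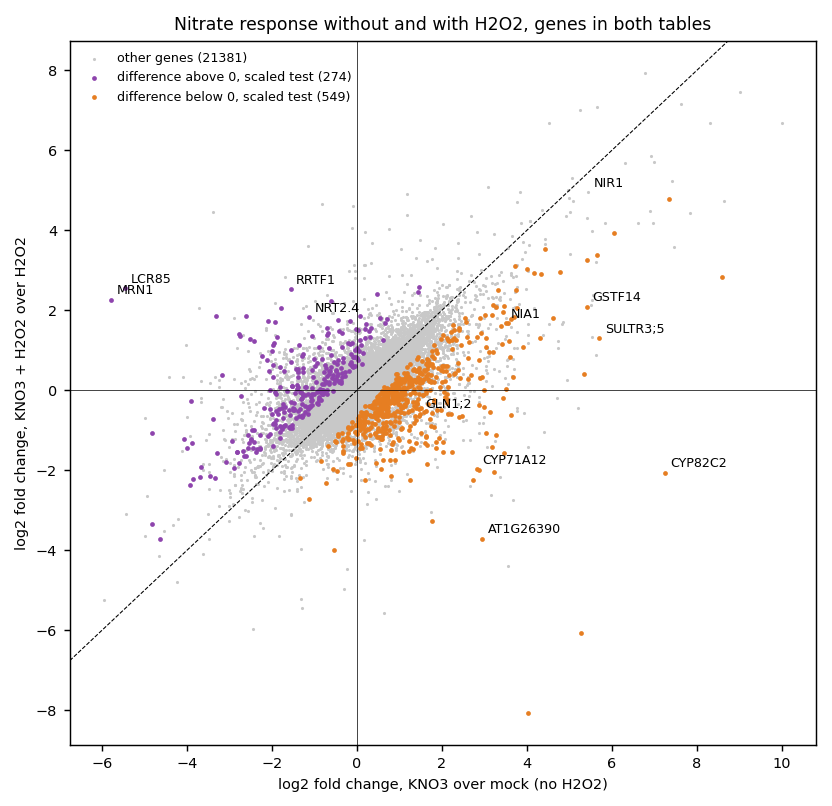
Log2 fold change of KNO3 with H2O2 over H2O2 (y axis) against KNO3 over mock without H2O2 (x axis) for 22204 genes, with each point a gene and the dashed line equal responses. Purple marks 274 genes with a difference above 0 and orange 549 below 0 in the scaled test. MRN1 and LCR85 lie at the upper left and CYP82C2 and AT1G26390 at the lower right.

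No response difference was called among ribosome biogenesis genes. Their median was 1.67 with H2O2 and 1.64 without, and the difference was called for 0 of 18 genes in either test, with differences from -0.14 to 0.49. Ribosomal protein genes did differ, below 0 for 82 of 307, 6 in the scaled test, and above 0 for 6, 0 in the scaled test. Over all genes 13.4% differed below 0 and 11.4% above. The ribosomal protein medians were 0.76 with H2O2 and 0.98 without, with 76 genes called higher with H2O2 and 141 without. Most nitrate reduction genes had a lower fold change with H2O2. The difference was below 0 for 9 of 11 genes, 5 in the scaled test, and the median was 0.82 against 1.44 in the authors' deposited tables. NIA1 had 1.67 ± 0.07 with H2O2 and 3.50 without in the authors' deposited tables, a difference of -1.83 (adjusted p = 1.49e-72, scaled 1.12e-17). NIR1 differed by -0.49, with a scaled adjusted p of 0.0599. Reductant genes differed below 0 for 8 of 17, 4 in the scaled test.

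Uptake and assimilation genes differed in both directions, more often below 0, as did all genes. Over all genes 13.4% differed below 0 and 11.4% above, 2.47% and 1.23% in the scaled test. Of 19 uptake genes 6 differed below 0, 4 in the scaled test, and 4 above 0, 1 in the scaled test. Of 20 ammonium assimilation and transport genes 9 differed below 0, 4 in the scaled test, and 3 above 0, 1 in the scaled test. NRT3.1 had 1.09 with H2O2 and 3.04 without in the authors' deposited tables, a difference of -1.95 (scaled adjusted p = 4.81e-23). NRT2.4 had 1.82 with H2O2 and -1.12 without in these tables, a difference of 2.94 (scaled adjusted p = 8.21e-09). The cytosolic glutamine synthetase GLN1;2 had -0.59 with H2O2 and 1.49 without in the authors' deposited tables, a difference of -2.08 (scaled adjusted p = 1.83e-24).

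Regulators and cytokinin genes also differed more often below 0 than above. The shares over all genes were 13.4% below and 11.4% above, 2.47% and 1.23% in the scaled test. Among the 37 nitrate regulators 17 differed below 0, 9 in the scaled test, and 6 above 0, 2 in the scaled test. LBD37 had 3.26 and 5.41 with and without H2O2 in the authors' deposited tables, and BT1 had 1.31 and 4.30. Of 15 cytokinin synthesis and export genes 5 differed below 0, 2 in the scaled test, and 2 above 0, 0 in the scaled test. Of 16 cytokinin response and breakdown genes 9 differed below 0, 4 in the scaled test, and 0 above 0, and the median was 0.80 with H2O2 and 1.56 without in the authors' deposited tables. Of 23 sulphur genes 5 differed above 0, 1 in the scaled test, and 4 below 0, 2 in the scaled test, with a median difference of 0.19. The largest difference above 0 was 1.07, for GGCT2;1, which had 1.79 with H2O2 and 0.71 without in the authors' deposited tables. SULTR4;2 had 0.80 with H2O2 and 0.06 without in these tables, a difference that missed the scaled test. SULTR3;5 had 1.30 and 5.71 and SULTR1;2 had 1.62 and 3.39 in these tables. GSTF14 had 2.09 and 5.42 in the same order there.

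Many indolic defence genes had opposite signs in the 2 settings. Without H2O2 8 of 12 rose after nitrate, and with H2O2 5 of 12 fell, in the authors' deposited tables. The difference was below 0 for 9 of 12 in the unscaled and 9 in the scaled test. CYP71A12 had 2.82 without H2O2 and -1.98 ± 0.09 with it in the authors' deposited tables, a difference of -4.80 (scaled adjusted p = 2.65e-53). AT1G26390 had 2.96 and -3.72 in the same order in these tables. Their H2O2 over mock log2 fold changes were 4.69 for CYP71A12 and 4.75 for AT1G26390 in the authors' deposited table. These changes enter the response difference with reversed sign, so they are no separate support for it. Salicylate genes differed below 0 for 10 of 13, 7 in the scaled test, and their median without H2O2 was -0.001 in that response's table.

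Marneral and thalianol genes, root triterpene clusters, differed the other way. All 7 were above 0 in the unscaled test and 5 in the scaled test. The differences ran from 0.41 to 8.06, the latter for MRN1, with a median of 1.72. With H2O2 2 of the 7 rose and 0 fell, and without H2O2 4 fell and 0 rose, in the authors' deposited tables. MRN1, marneral synthase, rose from a derived level of 53.07 to 255.5 with H2O2 present. Its log2 fold change was 2.27 ± 0.21 with H2O2 and -5.80 without in the authors' deposited tables, a difference of 8.06 (scaled adjusted p = 2.67e-22). All 7 are listed as lower after H2O2, MRN1 by -3.07, in the authors' deposited table. That change too enters the response difference with reversed sign and is no separate support for it. Jasmonate genes differed above 0 for 14 of 24, 5 in the scaled test, with medians of 0.35 with H2O2 and -0.27 without. Anthocyanin genes differed above 0 for 16 of 19, 5 in the scaled test, with medians of -1.42 with H2O2 and -1.94 without. Of the 19 genes 10 were called lower with H2O2 and 17 without in the authors' deposited tables.

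Photosynthesis genes, the shoot markers, differed below 0 for all 24, 14 in the scaled test, from -1.69 to -0.72. Their median was -0.11 with H2O2 and 1.01 without in the authors' deposited tables. LHCB3, an antenna protein gene, had derived levels of 1279 and 1556 without and with nitrate in H2O2. CAB2 had 0.68 with H2O2 and 2.38 without in the authors' deposited tables. With H2O2, 9 of the 24 log2 fold changes were above 0 and 15 below 0. Of the 24 genes 2 rose and 1 fell, beside 6.54% and 4.14% of all genes, in the authors' deposited table. RBCS1B rose from 1032 to 2894 and RBCS2B from 1291 to 3402, and these copies share 97.3% of their coding bases. LHCA1 fell, with -1.01 ± 0.18, and the related copy RBCS3B had -0.08 ± 0.10 in the authors' deposited table. Among 19 root markers the difference was above 0 for 4 and below 0 for 5, 0 of them in the scaled test, with medians of 0.10 and 0.07. All 24 shoot and all 19 root markers had a value. The derived levels of the shoot markers summed to 110775 with H2O2 and 98556 with KNO3 and H2O2, and those of the root markers to 7475 and 7179. The part of shoot and root content in these differences was not tested.

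**Figure D5:**
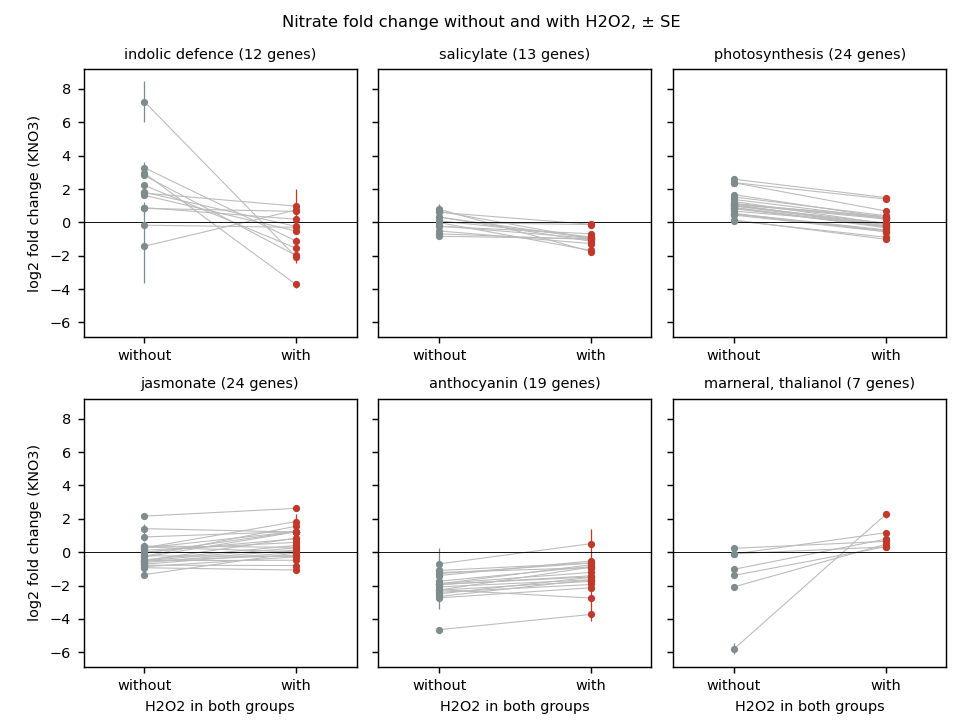
Log2 fold change of nitrate (y axis) without and with H2O2 in both groups (x axis) for 6 gene lists, with each point a gene, bars ± SE and lines joining the same gene. In the unscaled test the difference was below 0 for 9 of 12 indolic, 10 of 13 salicylate and 24 of 24 photosynthesis genes. It was above 0 for 14 of 24 jasmonate, 16 of 19 anthocyanin and 7 of 7 marneral or thalianol genes. The scaled test left 9 indolic, 7 salicylate and 14 photosynthesis genes below 0. Above 0 it left 5 jasmonate, 5 anthocyanin and 5 marneral or thalianol genes.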

How the data were processed

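The comparisons rest on 12 wild-type libraries in 4 groups and on 3 of the 5 deposited tables, which hold values per gene and none per library. Reads were aligned to TAIR10 by the authors with HISAT and Bowtie2 and counted with htseq-count before a DESeq2 fit, according to the design text and the submitters' processing notes. For tool versions and library depths, nothing is given in the sources used here. The base mean is a signal the authors made by averaging counts over size factors across a fit's libraries, per the file headers. The authors deposited log2 fold changes with standard errors, a test score equal to their ratio, and DESeq2 p-values adjusted by Benjamini-Hochberg over the listed genes.

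Group levels were derived from the base mean and fold change, which holds for a fit of these 6 libraries alone. The H2O2 group's level derived from the H2O2 over mock table differed from this by a log2 ratio of 0.0708 with an SD of 0.00058 over 1253 genes with a base mean over 50. Levels of the KNO3 and mock groups were not derived. The H2O2 over mock table holds 1810 genes, all called, so a gene outside it is not listed rather than unchanged.

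Each response difference was divided by the root of its summed squared standard errors and tested two-sided on the normal distribution, and p-values were Benjamini-Hochberg adjusted over the 22204 genes of both tables. An alternative divided the statistic by its robust SD. The code was tested on simulated data with noise drawn from the deposited standard errors. That simulation lacks the wider spread of the real statistic, a robust SD of 1.97, so it cannot check the unscaled test at that spread. Python 3.11.15, pandas 2.3.3, numpy 2.4.6, scipy 1.17.1, matplotlib 3.10.9 and biopython 1.88 were used.

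Symbols, products, sequences and coordinates are from RefSeq TAIR10.1, which held 22271 of the 22302 gene IDs. The comparison and the gene lists were chosen with earlier results of these data known. List members were named as examples and are not always those with the largest changes in their list. Beside them were named the 10 highest and 10 lowest changes at a base mean of at least 20, the 10 highest and 10 lowest response differences at that base mean in both tables, and the 8 called genes with the highest base mean in each direction. Count models and replicates left out need values per library and were not run.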

Additional observations from a re-analysis of the deposited data

Results flagged for a closer look

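The nitrate response differed between seedlings with and without H2O2 for 2534 genes above 0 and 2975 below 0, by the test of the difference itself (two-sided normal test of 2 deposited log2 fold changes, Benjamini-Hochberg adjusted over 22204 genes). With the statistic divided by its robust SD the counts were 274 and 549. Values below are response differences on the log2 scale, nitrate with H2O2 minus nitrate without, for the 10 genes at each end.

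The 10 highest differences were these. Marneral synthase MRN1 differed by 8.06, and the squalene monooxygenase SQP2 by 4.47. AT1G14960, of the polyketide cyclase superfamily, differed by 5.16 and AT3G02620, a stearoyl-ACP desaturase family gene, by 4.18. The cytochrome P450 gene CYP710A4 differed by 3.82, and AT5G36150, annotated as a triterpene synthase, by 3.77. The cysteine-rich peptide gene LCR85 differed by 8.01, the auxin-induced root gene AIR1 by 3.84, the lectin gene AT5G35940 by 3.83 and the methyltransferase gene AT3G44870 by 3.66. With H2O2, 9 of these 10 rose and AT5G36150 fell in the authors' deposited table, and all 10 fell without H2O2.

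The 10 lowest were these. AT3G55790, an uncharacterized protein gene, differed by -12.10, and its level with KNO3 and H2O2 was under 1 normalized count per library, so its size is not a fold. CYP82C2 of indolic defence differed by -9.31 and the berberine family gene AT1G26390 by -6.67. The lectin kinase gene AT2G29220 differed by -6.21, with a scaled adjusted p of 0.116, and the bZIP gene AT1G68880 by -5.76. The cupredoxin gene AT3G60270 differed by -5.26, the glutamate receptor gene GLR2.2 by -5.03 and the peroxidase gene AT3G03670 by -4.98. The auxin efflux carrier family gene AT5G65980 differed by -4.95 and the extensin-like gene AT1G26240 by -4.88. Of these 20 differences AT2G29220 alone missed an adjusted p of 0.05 in the scaled test.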

How the results depend on the processing

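No paired analysis was possible because the deposited tables hold no values per library, and for the same reason no library was left out. Without a fold minimum 5927 genes were higher and 5952 lower, and at 4-fold or more 230 and 122. Adjusted p-values recomputed over all genes, a base mean of at least 100 and an adjusted p under 0.01 kept these totals within 1.5 times. For the response difference, the scaled test left 274 genes above 0 and 549 below, a difference of at least 2-fold left 435 and 771, and an adjusted p under 0.01 left 1637 above 0. Centring on the median and the base mean filter kept both totals within 1.5 times. Of 346 named differences that passed the unscaled test, 211 missed the threshold in the scaled test. The cause was not tested. Of 66 list counts, 53 moved by over 1.5 times without a fold minimum, 9 with the base mean filter and 1 at an adjusted p under 0.01. Near-identical copies and low counts limit single genes, since the median SE was 0.747 at a base mean under 20.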
